A study of Mus musculus with 6 samples.

Results

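The genes described here encode the proteins of the cytosolic ribosome, together with the paralogues and further copies of those genes. They were taken by symbol: Rpl or Rps followed by a number and at most 2 further characters, plus Rplp0, Rplp1, Rplp2 and Rpsa, leaving out the S6 kinases and every symbol with -ps. The rule found 89 of 55401 genes, of which 77 form the core set (46 of the large and 31 of the small subunit) and 12 are paralogues or further copies. It left out 291 symbols that carry -ps.

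The cytosolic ribosome translates messenger RNA into protein. Its small subunit reads the codons, and its large subunit joins the amino acids. Ribosomal protein genes are among the most highly expressed genes of growing cells, and their messenger RNAs begin with a run of pyrimidines, the TOP motif, through which the kinase mTORC1 and the RNA-binding protein LARP1 control their translation. Some members have paralogues with a narrow pattern of expression: Rpl3l is known for striated muscle, Rpl10l and Rpl39l for the male germ line, and Rps27l as a target of p53.

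The 6 libraries are of RNA from cultured mouse cancer cells, 1 primary line per library, grown out of primary tumours of C57BL/6 animals that had been minced and digested with collagenase, dispase and trypsin. The lines labelled WT (WT2, WT4 and WT6) came from immunocompetent mice, and the lines labelled Rag1KO (KO1, KO3 and KO7) came from mice without Rag1, which make no mature T or B cells. No treatment was named, and the labels used here give neither the tumour type nor the age or sex of the animals. Values are normalized counts, reads divided by 1 size factor per library, and n = 3 lines per group.

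Libraries held 55409583 to 62998051 reads assigned to genes. Rag1 had 0 reads in each line labelled WT and 41, 109 and 183 reads in KO1, KO3 and KO7. Which part of the gene the reads came from was not tested, and the groups are called by their labels. The Y-linked genes Ddx3y, Eif2s3y, Kdm5d and Uty together had 2 reads in WT2 and 1 in WT4, against 6087 to 9636 in the other 4 lines, although Eif2s3y had 0 reads in WT6. WT6 stood apart in Col1a1, a collagen chain, which had 206 normalized counts there and 478322 to 1051710 elsewhere. Col1a2 and Pdgfrb were also lowest in WT6, at 151806 and 8208 against 434020 to 684707 and 29021 to 67654 elsewhere. The levels of Vim, Col3a1 and Pdgfra in WT6 lay within the range of the other lines. Summed markers of other cell types were far lower than the mesenchymal sum of 494205 or more. The epithelial sum ranged from 9.68 to 343, the endothelial sum from 20.2 to 240 and the leukocyte sum from 1.76 to 1497, with Cd3e, Epcam and Tie1 at 0 reads in each line. The melanocyte sum of 462 to 2253 was mostly Mitf, and Dct had no reads.

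The starts of some members are shown because TOP messenger RNAs are named after a pyrimidine run at their start, and because the values of these members are described below. Each line gives 25 bases to either side of the annotated start, 5′ to 3′ on the gene's strand, from RefSeq on GRCm38.p6, and capitals mark the longest run of at least 8 C or T bases, the first where runs are equally long. The marked run crosses the RefSeq start in Rpl15 and Rps6, follows it in Rps26 and Rpl22l1, and ends before it in Rpl31 and Rps27l. Rps27l has a further run of 9 that is not in capitals and also ends before the start.
Rpl31, least variable around the core, chr1:39367826-39367875, + strand: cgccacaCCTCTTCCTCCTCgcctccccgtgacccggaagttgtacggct
Rpl15, also among the least variable, chr14:18270962-18271011, - strand: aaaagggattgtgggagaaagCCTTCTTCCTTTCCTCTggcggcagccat
Rps6, the S6 kinase substrate, chr4:86857343-86857392, - strand: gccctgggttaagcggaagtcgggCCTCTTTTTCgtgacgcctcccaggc
Rps26, on chromosome 10, chr10:128626482-128626531, - strand: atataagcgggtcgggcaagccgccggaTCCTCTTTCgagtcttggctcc
Rps15, on chromosome 10 without such a run, chr10:80292406-80292455, + strand: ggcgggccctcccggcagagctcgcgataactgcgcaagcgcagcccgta
Rpl22l1, paralogue of Rpl22, chr3:28805483-28805532, + strand: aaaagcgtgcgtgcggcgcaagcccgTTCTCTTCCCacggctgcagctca
Rps27l, paralogue of Rps27, chr9:66946061-66946110, + strand: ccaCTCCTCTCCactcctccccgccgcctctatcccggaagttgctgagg
Rpl7l1, paralogue of Rpl7 without such a run, chr17:46782632-46782681, - strand: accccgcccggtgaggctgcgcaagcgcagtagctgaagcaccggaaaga

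A promoter was found for 57 core members and 7 of the 12 paralogues. A run of at least 8 pyrimidines within 25 bases of a start was present in 34 of the 57 core members (59.6%), in 4 of the 7 paralogues and in 27.1% of 27025 genes with a promoter. The whole window of 250 bases before to 50 after the start was searched on both strands for 4 motifs, none of which contains another. CCGGAA, the core of ETS factor sites, was found in 56.1% of the core members and 16.7% of all genes. GGGCGG, the GC box, was found in 61.4% against 38.2%, AAGATGG, of the YY1 site, in 15.8% against 7.28%, and TATAAA in 10.5% against 15.7%. A match is a string of letters, and binding was not measured.

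Core ribosomal protein genes had higher mean levels in the lines labelled WT than in those labelled Rag1KO almost throughout. The median difference was 1.34-fold, and no core member passed the test. The summed level of the 77 genes was 2480723 normalized counts in WT2, 2729489 in WT4 and 3051395 in WT6. It was 1989312 in KO1, 1914306 in KO3 and 2371497 in KO7. Each WT-labelled line lay above each Rag1KO-labelled line, although WT2 and KO7 were close. The means were 2753869 ± 286116 and 2091705 ± 245192 normalized counts (SD, n = 3), a ratio of 1.32, while the sum over all genes had a ratio of 0.998. WT6, the line labelled WT in which Ddx3y, Kdm5d and Uty had reads and Eif2s3y had 0, had the highest core sum of the 6. In bulk samples, fewer cells of a type and less RNA per cell cannot be told apart, and each value is relative to the other RNA of its library.

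**Figure D1:**
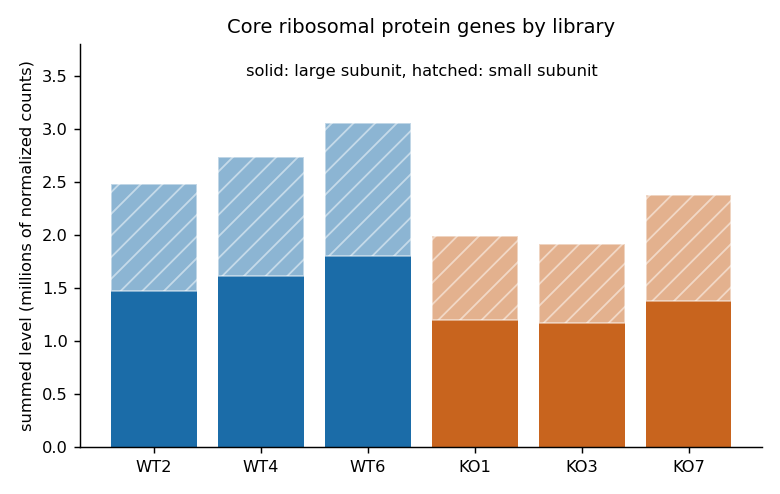
Summed normalized counts of the 77 core genes (vertical axis from 0) in each of the 6 libraries, blue for the lines labelled WT and orange for those labelled Rag1KO, with the large subunit solid and the small subunit hatched. The lines labelled WT stand at 2480723, 2729489 and 3051395 and those labelled Rag1KO at 1989312, 1914306 and 2371497.

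The separation of the groups rested on how libraries were scaled. As a share of all reads assigned to genes, the core took 3.91%, 4.75% and 5.55% in WT2, WT4 and WT6, and 3.52%, 2.98% and 4.28% in KO1, KO3 and KO7. On that scale KO7 lay above WT2 and the groups overlapped, with an unchanged ratio of 1.32. After TMM or upper-quartile scaling the groups again did not overlap, at ratios of 1.32 and 1.33.

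Gene by gene, 75 of the 77 core members had a positive log2 difference (WT minus Rag1KO), where 50% of the 16137 genes tested did. The median over the core was 0.42 on the log2 scale, or 1.34-fold, and the median over all genes tested was 0.00. Among 2466 other genes with a mean of at least 5000 normalized counts the median was 0.04, and 54.6% were positive. limma called 0 of the 77 core members at an adjusted p under 0.05, and 0.0062% of all genes tested. edgeR also called 0, with 0% of all genes, and DESeq2 called 0, with 0.41%. Unadjusted, 12 core members had p under 0.05 by limma, all higher in the lines labelled WT, where the share over all genes was 2.06% in that direction. edgeR gave 6 such members beside 2.19% of all genes, and DESeq2 gave 17 beside 3.13%.

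In 29 of the 77 core members each line labelled WT lay above each line labelled Rag1KO, as did 6.49% of the genes tested. The opposite order was found for 0 core members and 5.6% of the genes tested. These counts are not independent of each other, since members shared their highest and lowest libraries: WT6 was the highest library for 45 members and WT4 for 21, while KO1 was the lowest for 39 and KO3 for 24. Without WT6 the median was 0.37, and 73 of 77 differences were positive. Then 31 members did not overlap with WT higher, beside 11.2% of genes tested. Leaving out WT4, KO1 or KO3 gave 31, 29 and 30 such members, beside 12.1%, 10.8% and 10.9%. Leaving out WT2 took that number to 55 members beside 12.2%, and leaving out KO7, the Rag1KO-labelled line with the highest core level, took it to 62 beside 11.5%. The opposite order was found for 1 member without WT6, beside 9.4%, and for 1 without KO3, beside 10.2%.

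**Figure D2:**
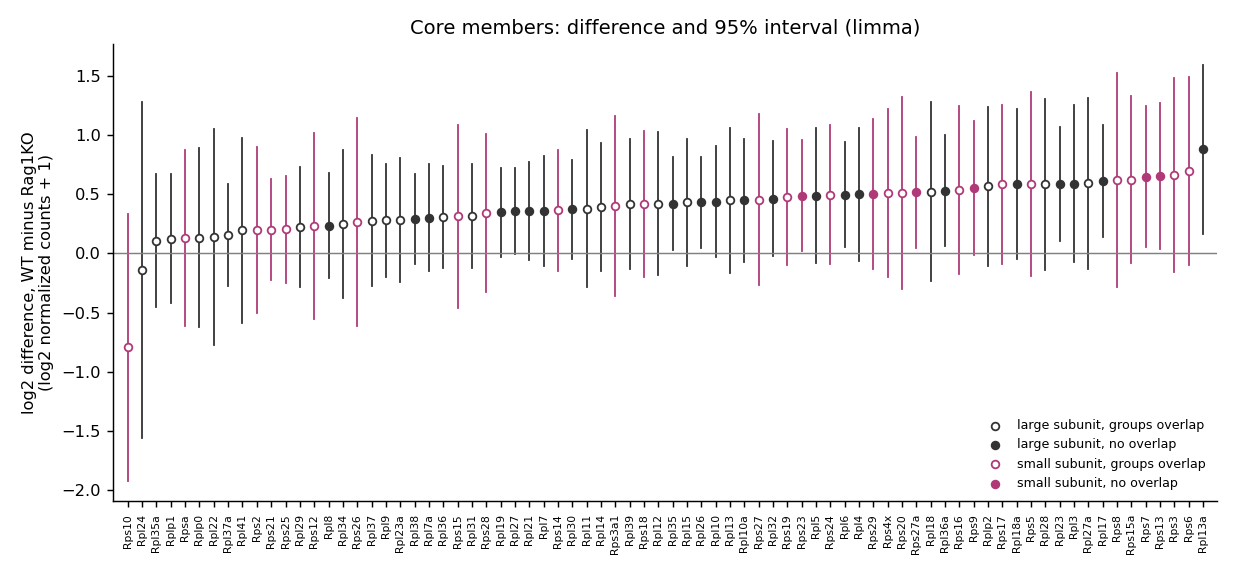
The log2 difference of the core members, 1 of them not drawn (vertical axis, lines labelled WT minus lines labelled Rag1KO, on log2 of normalized counts + 1) with its 95% interval from limma, ordered by size, black for the large and magenta for the small subunit, filled where the groups did not overlap. All points but Rps10 and Rpl24 lie above 0, most of them between 0.1 and 0.7, and most intervals reach 0.

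Both subunits had higher medians in the lines labelled WT. Large-subunit genes had a median log2 difference of 0.39, positive for 45 of 46, and 22 of them did not overlap. Small-subunit genes had a median of 0.49, positive for 30 of 31, and 7 did not overlap. All of these had WT higher, as did 6.49% of the genes tested, of which 50% were positive. The ratio of the large-subunit sum to the small-subunit sum was 1.47, 1.45 and 1.44 in WT2, WT4 and WT6 and 1.51, 1.56 and 1.38 in KO1, KO3 and KO7. The subunits thus stayed within a narrow range of each other in all 6 lines, and the groups overlapped.

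The core members with the lowest p had fitted folds of 1.44 to 1.84. Rpl17, a protein at the exit of the peptide tunnel, had 31824, 41412 and 43181 normalized counts in WT2, WT4 and WT6 and 24424, 25624 and 25514 in KO1, KO3 and KO7. The Rag1KO-labelled lines were almost level, and each line labelled WT stood above them. Its log2 difference was 0.61 ± 0.19 (SE), with an unadjusted p of 0.0197 and an adjusted p of 0.85 by limma.

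Rpl23, a large-subunit protein that can bind MDM2, had 35716, 41235 and 47239 normalized counts in the lines labelled WT and 24755, 27282 and 30368 in those labelled Rag1KO, a log2 difference of 0.59 ± 0.20 (SE). Its groups did not overlap, with WT6 highest and KO1 lowest. Rpl36a, on chromosome X, had 11693, 15766 and 14688 against 9928, 8442 and 10732, a log2 difference of 0.53 ± 0.19 (SE). It was highest in WT4, and its groups did not overlap. The adjusted p was 0.85 by limma for both genes.

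Among the genes grouped by role, Rps6, on chromosome 4, stood high. It encodes the small-subunit protein that S6 kinases phosphorylate, and had 38049, 46556 and 66942 normalized counts in WT2, WT4 and WT6 against 24341, 27176 and 42138 in KO1, KO3 and KO7. KO7 lay above WT2, so the groups overlapped, and the log2 difference was 0.70 ± 0.32 (SE), 1.62-fold, with an adjusted p of 0.85 by limma. Rps27a, which is made as a fusion with ubiquitin, had 30428.5, 30664 and 36324 normalized counts against 21187, 20653 and 26506. Its groups did not overlap, and the log2 difference was 0.52 ± 0.19 (SE).

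The stalk, the flexible arm that recruits translation factors, was positive for 4 of 4 genes with a median log2 difference of 0.28. None of them was separated between the groups, where 6.49% of the genes tested were with WT higher and 5.6% with Rag1KO higher. Rplp2, on chromosome 7, had 17359, 20184 and 27498 normalized counts in the lines labelled WT and 11443, 13734 and 18816 in those labelled Rag1KO, a log2 difference of 0.57. Its partner Rplp1 differed by 0.12, since KO7 at 54573 matched WT6 at 54727. Rpl5 and Rpl11, which carry 5S RNA into the ribosome and inhibit MDM2 when free, had log2 differences of 0.49 and 0.38. Of these, Rpl5 was separated, with 48164 to 69462 against 38067 to 46632 normalized counts.

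Genes of the decoding centre, messenger RNA channel and head of the small subunit were positive for 5 of 5, with a median log2 difference of 0.31. Rps23, a protein of the decoding centre, had 37107, 33060 and 42043 normalized counts against 24369, 25696 and 29890, and did not overlap. Rps3, at the entry of the messenger RNA channel and encoded on chromosome 7, had 31914, 41116 and 57923 against 19689, 26732 and 36537, and KO7 lay above WT2. Rpsa, also known as the laminin receptor precursor, was among the members with little difference: 101332, 94553 and 121191 in the lines labelled WT, and 91830, 72839 and 132027 in those labelled Rag1KO. Its highest value was in KO7, and its log2 difference of 0.13 turned to -0.07 without KO3.

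Genes mutated in Diamond-Blackfan anaemia, an inherited failure of red cell production, were positive for 17 of 18 with a median of 0.43, close to that of the core as a whole. Rpl26 had 30426, 33142 and 33223 normalized counts against 23145, 24530 and 24075. Rpl35 had 20713, 21302 and 21050 against 15299, 14404 and 17568. In both, the lines within a group were close together and the groups were apart. Rps7 had 30580, 34780 and 40983 against 27455, 23647 and 17388, with KO7 the lowest by a wide margin.

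Members on chromosome X were positive for 4 of 4 with a median log2 difference of 0.47. Rpl10, near the peptidyl transferase centre, had 60550, 71419 and 66721 normalized counts against 51640, 45195 and 49651, with no overlap. Rps4x, a small-subunit protein, had 45073, 69207 and 69578 against 42349, 33474 and 52926, and Rpl39 had 11955, 18206 and 15623 against 10936, 9846 and 13239. For both, KO7 lay above WT2.

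Members did not move as 1 block. Each member's log2 level was set against the median of the core in the same library and centred on its own mean, and the SD of this deviation over the 6 libraries was taken as its spread around the core. The median spread was 0.20. Rpl31 (spread 0.07), Rpl15 (0.09) and Rpl32 (0.10) followed the core most closely. Rpl31 had 23540, 28833 and 28810 normalized counts in WT2, WT4 and WT6 and 20364, 20824 and 23940 in KO1, KO3 and KO7. Among well expressed members, the widest spreads were those of Rps26 (0.59), Rpl41 (0.52) and Rps15 (0.51).

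Rps26, Rpl41 and Rps15 are all on chromosome 10, as is Rps12, a protein of the head of the small subunit. Rps26 had 49041, 30647 and 21641 normalized counts in WT2, WT4 and WT6 and 33798, 26325 and 21106 in KO1, KO3 and KO7. Rps15 had 51777, 44224 and 27515 against 39851, 32245 and 25534. Both were highest in WT2 and lowest in KO7, and their groups overlapped, with log2 differences of 0.26 and 0.31.

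Rpl41, a protein of the large subunit that is among the smallest known, and Rps12 were the members with the highest level per length, at 113884 and 115861 normalized counts per kilobase of transcript. Rpl41 had 72983, 49768 and 38067 against 58000, 41839 and 37949 normalized counts, and Rps12 had 87419, 44316 and 56100 against 63215, 48685 and 43678. They too were highest in WT2 and lowest in KO7. For Rps26, Rpl41 and Rps12 the log2 difference between the groups rested on WT2: without that line it was -0.05, -0.05 and -0.04.

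These shifts were shared with the other genes of the chromosome. Relative to the core, the 4 members on chromosome 10 had a median deviation of 0.65 in WT2, -0.18 in WT4, -0.74 in WT6, 0.47 in KO1, 0.12 in KO3 and -0.38 in KO7. The 628 other tested genes on chromosome 10 with a mean of at least 100 normalized counts had median deviations of 0.55, -0.02, -0.47, 0.31, 0.09 and -0.45 in the same order. All 4 members thus lay above the core in WT2 and KO1 and below it in WT6 and KO7, in the direction of their neighbours.

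**Figure D3:**
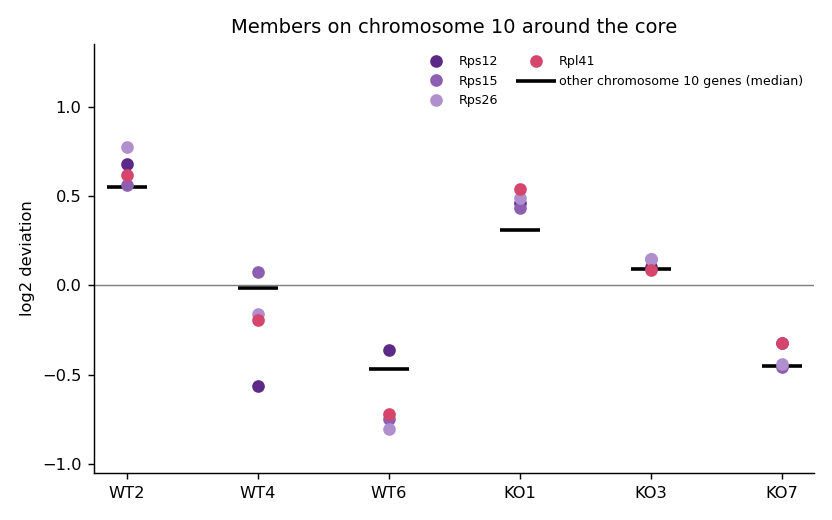
Deviation of Rps12, Rps15, Rps26 and Rpl41 from the core (log2, vertical axis) in each library, with the median deviation of the 628 other genes of chromosome 10 as a black bar. Members and bar are high in WT2, at 0.55 or more, and low in WT6 and KO7.

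Members on several other chromosomes showed the same. On chromosome 12, Rps7 and Rps29 had a median deviation of -0.69 in KO7, where 447 other genes of the chromosome had -0.68. In the other 5 lines those members lay between -0.0013 and 0.34 around the core. Chromosome 7 holds 14 core members, more than any other chromosome. All 14 were highest in WT6, with a median deviation of 0.29 beside 0.21 for other genes, and lowest in KO1, at -0.37 beside -0.34. Rps3 and Rplp2 are among the 14, at 0.41 and 0.28 in WT6 and -0.50 and -0.34 in KO1. WT6 and KO1 are on opposite sides of the comparison, and members on chromosome 7 had a median log2 difference between the groups of 0.59, positive for 14 of 14, and the 63 members elsewhere had 0.37, positive for 61.

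Chromosome 4, which holds 5 core members, deviated by 0.33 in WT6, -0.35 in KO1 and 0.30 in KO7, beside 0.27, -0.31 and 0.26 for its other genes. Rps6 is among these members, at 0.42 in WT6, -0.39 in KO1 and 0.15 in KO7. Chromosome 15, with 4 core members, deviated by 0.27 in WT2 and KO3 and by -0.28 in WT6, beside 0.25, 0.27 and -0.32. Of these members Rpl3 went the other way in WT6 and KO1, at 0.36 and -0.22 beside -0.32 and 0.08. In WT2 and KO3 it was on the side of its neighbours, at 0.09 in both. Chromosome 16 was less alike, at 0.63 in KO3 beside 0.07 for other genes. Of its 2 core members 1 is Rpl24, which had few reads.

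Over the 77 members in 6 libraries, a member's deviation and the median deviation of the other genes on its chromosome had a Pearson correlation of 0.72 and a Spearman correlation of 0.70 (462 points). The points share libraries, and members on 1 chromosome share the same chromosome value, so this is a description. Within single libraries the Pearson correlation was 0.84 in WT2, 0.78 in WT6, 0.83 in KO1, 0.56 in KO3 and 0.79 in KO7, and 0.29 in WT4. Taking the chromosome median off each value lowered the spread of 68 of the 77 members, and the median spread went from 0.20 to 0.12. After that step 76 of 77 core members were positive between the groups, with a median log2 difference of 0.39.

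**Figure D4:**
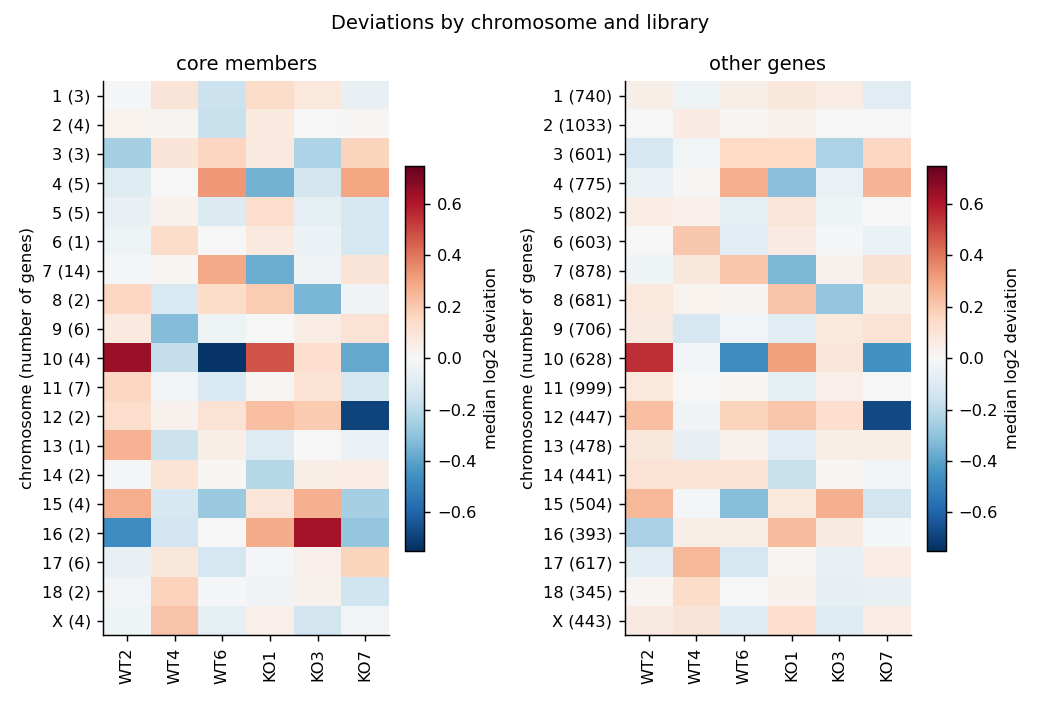
Median log2 deviation by chromosome (rows, with the number of genes) and library (columns), left for the core members around the core and right for all other tested genes with a mean of at least 100 normalized counts, red above and blue below 0. The panels share strong cells, among them chromosome 10 in WT2, WT6, KO1 and KO7, chromosome 12 in KO7, and chromosomes 4 and 7 in WT6 and KO1. Chromosome 16 in KO3 is strong on the left alone, at 0.63 beside 0.07.

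The 2 core members with negative differences were also those with the lowest level per length. Rpl24, which lies at the interface of the subunits, had 22.2, 39.6 and 44.9 normalized counts in WT2, WT4 and WT6 and 37.4, 63.7 and 22.3 in KO1, KO3 and KO7. Rps10, in the head of the small subunit, had 70.5, 57.0 and 125 against 182, 111 and 131. The groups overlapped for both, with log2 differences of -0.14 ± 0.58 and -0.79 ± 0.46 (SE), and that of Rpl24 changed sign without WT2 (0.16) or without KO3 (0.23).

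Both genes, and Rpl13a, share most of their transcript on the same strand with another annotated gene in GENCODE M21. Rpl24 (chr16:55966275-55971435) is covered for 71.5% by Gm28037, Rps10 (chr17:27630418-27636669) for 91.6% by the protein-coding gene ENSMUSG00000117338.1, and Rpl13a (chr7:45125558-45128761) for 59.3% by Gm45713. Each of these other genes had 0 reads. Processed copies elsewhere in the genome held far more reads than Rpl24 and Rps10 themselves: near copies had a mean of 6560 normalized counts for Rpl24, most of it in Gm9385, and of 6052 for Rps10, most of it in Rps10-ps2.

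Rpl13a, which had the largest difference of the core, had 1736, 1930 and 2848 normalized counts in the lines labelled WT and 885, 1188 and 1457 in those labelled Rag1KO. Its groups did not overlap, and the log2 difference was 0.88 ± 0.29 (SE), 1.84-fold, with an adjusted p of 0.85 by limma. At 1599 normalized counts per kilobase it was the third-lowest core member by length, so its level and that of Rpl24 and Rps10 are uncertain. Leaving out these 3 genes, 74 of 74 core members were positive with a median of 0.43.

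Near copies concern most of the core. A copy was counted where another annotated transcript matched at least 95% of bases over at least 80% of the coding sequence. By this measure 74 of 77 core members had 1 or more copies, 569 genes in all, with a median of 5 and up to 57 for Rpl21. Reads of a member and of its copies can be exchanged by mapping, so the split between them is uncertain. The copies themselves had the pattern of their parents: of 414 tested, 401 were positive, with a median log2 difference of 0.49. Symbols with -ps were positive for 144 of 147 tested, with a median of 0.48. Adding the copies to each member left 77 of 77 core members positive with a median of 0.44.

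The paralogues fell into genes without reads, genes with reads of their own and near-identical copies. Rpl10l and Rpl39l, known for the male germ line, had 0 reads in all 6 libraries, which allows up to 3 reads in each. Rpl3l, known for striated muscle, had 1, 2 and 0 reads in WT2, WT4 and WT6 and 4, 0 and 1 in KO1, KO3 and KO7. Their parents Rpl10, Rpl39 and Rpl3 were abundant, the last at 69219, 69490 and 109971 normalized counts in the lines labelled WT against 46922, 57381 and 57745, with a log2 difference of 0.59.

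Rps4l had the largest difference of all members. It is annotated as a transcribed processed pseudogene (chr6:148354656-148355598) and is 79.8% identical to the coding sequence of Rps4x over 792 bases. Rps4l had 0, 1 and 0 reads in WT2, WT4 and WT6 and 208, 1686 and 58 reads in KO1, KO3 and KO7. The groups did not overlap, but the Rag1KO-labelled lines themselves differed 34.8-fold between KO3 and KO7. The mean was 736 ± 1057 normalized counts (SD, n = 3) in the lines labelled Rag1KO, and its ratio to the WT-labelled mean was 2288, with an interval of 411 to 90365 that covers only the counting error of the single read. limma gave a log2 difference of -7.81 ± 1.32 (SE) with an adjusted p of 0.85, edgeR an adjusted p of 0.89, and DESeq2 an adjusted p of 1.85e-06 and a log2 difference of -11.09. Rps4x itself had the opposite sign, with a log2 difference of 0.51.

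Of the paralogues with reads in each library, Rpl22l1 differed most between the groups. Rpl22 binds RNA, and its loss is known to raise Rpl22l1. Rpl22l1 had 2791, 5546 and 3534 normalized counts in WT2, WT4 and WT6 and 2726, 2396 and 1704 in KO1, KO3 and KO7. The lines labelled WT were higher without overlap, though WT2 and KO1 were nearly level, and the log2 difference was 0.77 ± 0.32 (SE) with an adjusted p of 0.85 by limma.

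Rpl22 had 9563, 6582 and 15348 against 6796, 8882 and 12001 normalized counts. It was highest in WT6 and lowest in WT4, the line in which Rpl22l1 was highest. Rpl22l1 therefore made up 84.3% of the level of Rpl22 in WT4, and 14.2% to 40.1% in the other lines. The log2 difference of Rpl22 was 0.14, and without WT6 it was -0.18.

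Rps27l is 76.2% identical to Rps27 in its coding sequence and had 5412, 3377 and 3756 normalized counts in WT2, WT4 and WT6 and 5255, 4863 and 2398 in KO1, KO3 and KO7. Its log2 difference was 0.05 ± 0.37 (SE). Rps27 had 7712, 12601 and 13638 against 7714, 6531 and 10212. Lines that were low in Rps27 were high in Rps27l, so that the paralogue reached 70.2%, 68.1% and 74.5% of its parent in WT2, KO1 and KO3, and 26.8%, 27.5% and 23.5% in WT4, WT6 and KO7. Each group thus held lines of both kinds, and the groups overlapped (exact two-sided permutation test, p = 0.9).

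Rpl7l1, which acts in ribosome assembly, had 5222, 5788 and 5894 normalized counts against 4524, 3367 and 5385, with a log2 difference of 0.37 ± 0.21 (SE). The ratio to Rpl7 lay between 9.15% and 13.3% in all 6 lines, a coefficient of variation of 12.4%, where Rpl7 itself varied by 16.4%.

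**Figure D5:**
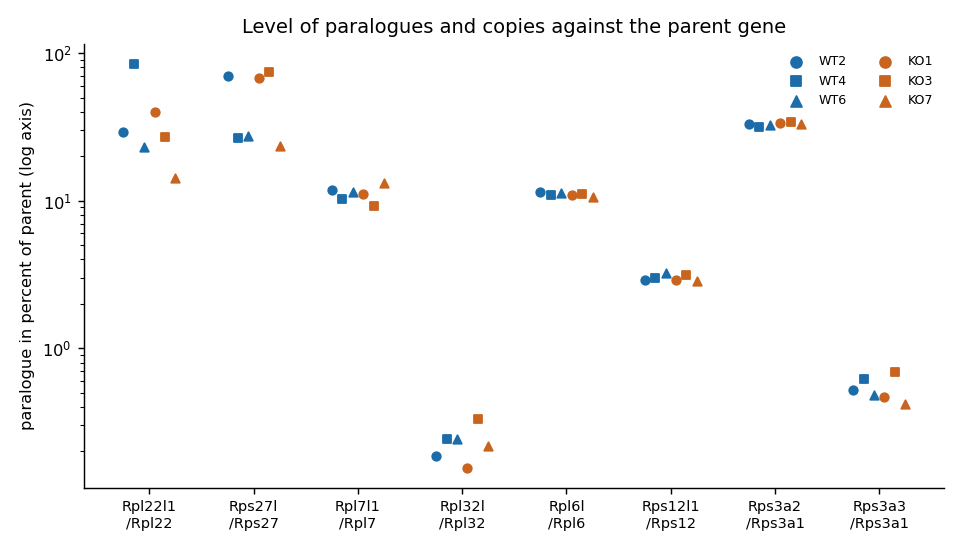
Level of 8 paralogues or copies in percent of their parent gene (log axis), 1 point per library, blue for the lines labelled WT and orange for those labelled Rag1KO. The points of Rpl22l1 and Rps27l are spread over 14.2% to 84.3% and 23.5% to 74.5%, while those of Rpl6l and Rps3a2 lie almost level.

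The remaining 5 members are annotated as processed pseudogenes and are nearly identical to their parents, in at least 96.0% of aligned bases. Rpl6l was at 10.6% to 11.4% of Rpl6 in all 6 lines, a coefficient of variation of 2.45%, where Rpl6 itself varied by 19.1%. Rps3a2 was at 31.5% to 34.2% of Rps3a1 (2.77%, with 28.4% for the parent), and Rps12l1 at 2.87% to 3.25% of Rps12 (5.41%, with 28.9% for the parent). Their levels were thus close to a constant share of the parent's, and reads of parent and copy may be exchanged. Rpl32l and Rps3a3 had few reads, 38 to 96 and 165 to 334, and their ratios varied by 26.4% and 19.2%.

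Over the 8 pairs with reads in each library, exact two-sided permutation tests of the log2 ratio between the groups gave p from 0.1 to 1, and 0.8 to 1 after Benjamini-Hochberg adjustment. With 3 lines against 3 the smallest p this test can give is 0.1. The ratio of Rps3a2 to Rps3a1 reached it, with a log2 difference of -0.06.

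Genes that work with ribosomal proteins were compared from lists. Other translation genes with a TOP start were positive for 15 of 17, with a median log2 difference of 0.38, close to that of the core, and 7 of them did not overlap with WT higher, beside 6.49% of the genes tested. Tpt1, a translationally controlled protein, had 90491, 104857 and 199804 normalized counts in WT2, WT4 and WT6 and 52338, 65115 and 58351 in KO1, KO3 and KO7. Its groups did not overlap, with WT6 far above the rest, and the log2 difference was 1.08 ± 0.36 (SE), adjusted p 0.85 by limma. Eif3f, of initiation factor 3, and Rack1, a scaffold on the small subunit, had log2 differences of 0.61 and 0.55, also without overlap.

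Ribosomal protein genes and paralogues whose symbols fall outside the rule were positive for 4 of 5, with a median of 0.49. Fau, whose product carries the small-subunit protein Rps30, had 16617, 19644 and 31721 normalized counts against 15797, 14284 and 21052, with overlap and a log2 difference of 0.37. Rps27rt, a retrotransposed copy identical to Rps27 in its coding sequence, had 172, 270.4 and 319 against 174, 137 and 223.

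Regulators of TOP translation (mTORC1, LARP1 and S6 kinases) were positive for 10 of 13 with a median of 0.09. Of these regulators 0 were separated, where 6.49% of the genes tested were with WT higher and 5.6% with Rag1KO higher. Larp1 had a log2 difference of 0.36, and Rps6kb2, an S6 kinase, -0.49. Eif4ebp1, which mTORC1 phosphorylates, was at 14795 normalized counts in WT6 and between 3824 and 6380 in the other 5 lines. Dedicated chaperones, carriers and modifiers were positive for 12 of 13 tested, with a median of 0.25. Of these, Pdcd2, a carrier of Rps2, had 962, 1274 and 1705 normalized counts against 792, 636 and 689, with a log2 difference of 0.86, and Prmt3, which methylates Rps2, had 0.87. Pdcd2, Prmt3 and Pdcd2l were the 3 that did not overlap, all with WT higher, beside 6.49% of the genes tested. limma called 0 genes of these lists, beside 0.0062% of the genes tested.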

How the data were processed

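The authors deposited 1 signal value per gene and library. Per the submitters' processing notes the tools were Trim Galore 0.6.6, FastQC, STAR 2.7.9a and DESeq2 with mm10; the read counter, annotation and strand setting are not given in the sources used here, and libraries were Illumina TruSeq stranded, per the labels' protocols. Each deposited value is a whole number of reads (100% within 0.01 reads) over 1 size factor per library, equal to median-of-ratios factors. Members, lists and tests were chosen with earlier results of these data known. GENCODE M21 (GRCm38) held 55141 of 55401 gene IDs and all 89 members.

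limma 3.58.1 with a mean-variance trend was fitted to log2(value + 1) over 16137 genes kept by filterByExpr, two-sided, with Benjamini-Hochberg adjustment over all of them and a threshold of 0.05. edgeR 4.0.16 and DESeq2 1.42.0 were run on the recovered reads. The labels do not say that lines came from separate animals, so p-values measure only the spread between these samples. On data simulated for this comparison, over 16137 genes, limma found none of the genes changed by 2-fold (0%), 9.33% of those at 4-fold, 52% at 8-fold and 62.7% where the change was 16-fold. Copies were found with BLAST 2.17.0. Floors and counting intervals (95%) cover counting error only.

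Of the paralogues, Rpl32l, Rpl6l, Rps12l1, Rps3a2 and Rps3a3 were put in that set from their symbols and annotation. Named genes are the paralogues and parents, the 5 core members per direction with the lowest p, the 5 with the largest and 3 with the smallest spread, the 3 highest and lowest per length, those on chromosome X, and up to 3 of lowest p per list. Rpl21, Rps29 and the genes of the library checks were chosen after their values were seen. Per-length levels use the main annotated transcript. 1 core member is not reported singly here.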

Additional observations from a re-analysis of the deposited data

How the results depend on the processing

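The core had 0 genes past the threshold under each other test, scaling, filter, pseudocount and left-out line, and its median log2 difference was positive under these and under the 3 alternatives that give a median alone, at 0.36 to 0.52 with 1 line left out and 0.35 at the lowest (edgeR and DESeq2 without WT6); the log2 ratio of the summed level ranged from 0.32 to 0.50. Added after seeing the data were edgeR and DESeq2 without WT6, and, with no test of single genes, near copies added, the chromosome median taken off and overlapped members left out. Genes past the threshold numbered 1 with limma, 0 with edgeR, 65 with DESeq2, 0 and 151 with edgeR and DESeq2 without WT6, and 0 to 5 with 1 line left out. Paralogue to parent ratios (log2 differences) crossed 0 with 1 line left out for Rpl7l1 to Rpl7 (-0.13 to 0.14), Rpl32l to Rpl32 (-0.27 to 0.28), Rps12l1 to Rps12 (-0.0088 to 0.084) and Rps3a3 to Rps3a1 (-0.081 to 0.28). The 56 named genes had 895 values under alternatives, 876 with the same direction and call. With 1 line left out the log2 difference changed sign for Rps27l (-0.30 to 0.26), Rpl22 (-0.18 to 0.43), Rpsa (-0.067 to 0.36), Rps12 (-0.039 to 0.45), Rps26 (-0.046 to 0.54), Rpl41 (-0.053 to 0.42) and Rpl24 (-0.51 to 0.23). It also did for Rps27l with edgeR (-0.0081) and DESeq2 (-0.0069), and without WT6 for Rpl22 (-0.20 with both) and Rpsa (-0.020 with edgeR, -0.024 with DESeq2). DESeq2 called Rps4l with all lines (adjusted p 1.85e-06) and without WT6 (1.09e-04), and Tpt1 without WT6 (log2 difference 0.73, adjusted p 0.0473). The cause was not tested. No paired analysis was possible because the groups share no replicate number. limma recovered 0% of 2-fold changes in simulated data, where the changed genes were drawn at random above a minimum level. The core was not simulated apart, so how often a difference of its size, 1.34-fold, would be called in its members was not measured.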

Other observations

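Rps27l is a known p53 target, and other p53 targets, chosen after their values were seen, were read beside it. In KO7, where Rps27l was lowest (2398 normalized counts), Cdkn1a, a cell cycle inhibitor, had 1390, Mdm2 2542 and Ccng1 3659 normalized counts, each the lowest of the 6 lines. In the other lines Cdkn1a had 6664 to 16931, Ccng1 11519 to 28282 and Mdm2 6979 to 43665, the last highest in KO1. Rps27l was higher in WT2, KO1 and KO3 (4863 to 5412) than in WT4 and WT6 (3377 and 3756), and so were Cdkn1a, at 9130 to 16931 against 6664 and 6919, and Ccng1, at 18523 to 28282 against 13453 and 11519. Mdm2 lies on chromosome 10, whose other genes were also low in KO7 and WT6 (median deviations -0.45 and -0.47). They were high in WT2 and KO1 (0.55 and 0.31), so the levels of Mdm2 cannot be told apart from that shift. What these genes share across lines was not tested.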
